A study of Mus musculus with 6 samples.

Results

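The 34 genes described here drive or restrain the division cycle: 10 replication genes, 11 genes of mitosis, 10 cyclins, kinases and regulators of G1 and of entry into S phase, and 3 inhibitors of cyclin-dependent kinases. They were chosen by gene symbol from the 39017 genes of the count table, and all 34 had a row. The table holds RNA pulled down with tagged ribosomes from corpus callosum, the white matter tract that joins the hemispheres. The comparison is between 3 libraries of C57BL/6 mice fed 0.2% cuprizone (replicates 30, 31 and 32) and 3 libraries of C57BL/6 control mice (replicates 24, 26 and 27). Cuprizone binds copper, and feeding it to mice causes the loss of oligodendrocytes and of myelin.

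Mice of both groups carried RiboTag and Olig1-Cre, so that ribosomes are HA-tagged on RPL22 in cells in which the Olig1 promoter has driven Cre, and an anti-HA antibody was used for all 6 libraries. The labels describe young adult females of 8 to 10 weeks at the start. They name 6 or 9 weeks of cuprizone and 3 weeks of recovery on control diet. They do not say which of these times applies to the 3 cuprizone libraries, nor whether each library is a single mouse. The p-values below therefore weigh the difference between the groups against the spread between libraries.

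A cell enters the cycle when D-type cyclins activate CDK4 or CDK6, which phosphorylate the retinoblastoma protein and free E2F factors to switch on genes of DNA synthesis. Cyclin E with CDK2 then starts S phase, and cyclins A and B with CDK1 carry the cell through G2 and mitosis. In adult white matter, oligodendrocyte progenitors are the lineage cells that divide, while differentiated oligodendrocytes have left the cycle, a step that CDK inhibitors such as p27 help to enforce. After demyelination, new oligodendrocytes come largely from divided progenitors.

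For most cell cycle genes no difference was detected between cuprizone and control libraries. Levels are given as counts per library scaled to a common depth (CPM, TMM-scaled). Of the 33 members with enough counts to test, none was higher and 1 was lower in cuprizone at a Benjamini-Hochberg adjusted p of 0.05 in edgeR's quasi-likelihood test. That is 3.03% of the members, where 7.57% of the 16569 genes tested passed in either direction, 1.87% higher and 5.7% lower. The member that fell was Cdkn1c, which encodes the CDK inhibitor p57. At an unadjusted p of 0.05, 3 members passed (9.09%, against 23.3% of all genes), namely Pcna, Ccnb2 and Cdkn1c, and the same 3 were the members whose groups did not overlap, against 30.2% of all genes. DESeq2 and limma-voom also called 0 members higher and 1 lower, where DESeq2 called 13.7% of all genes (5.21% higher, 8.46% lower) and limma-voom 7.63% (1.77% higher, 5.87% lower). The members' median log2 fold change was 0.04 and that of all genes tested 0.02. Without its sign, the median log2 fold change was 0.14 for members and 0.25 for all genes tested.

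**Figure D1:**
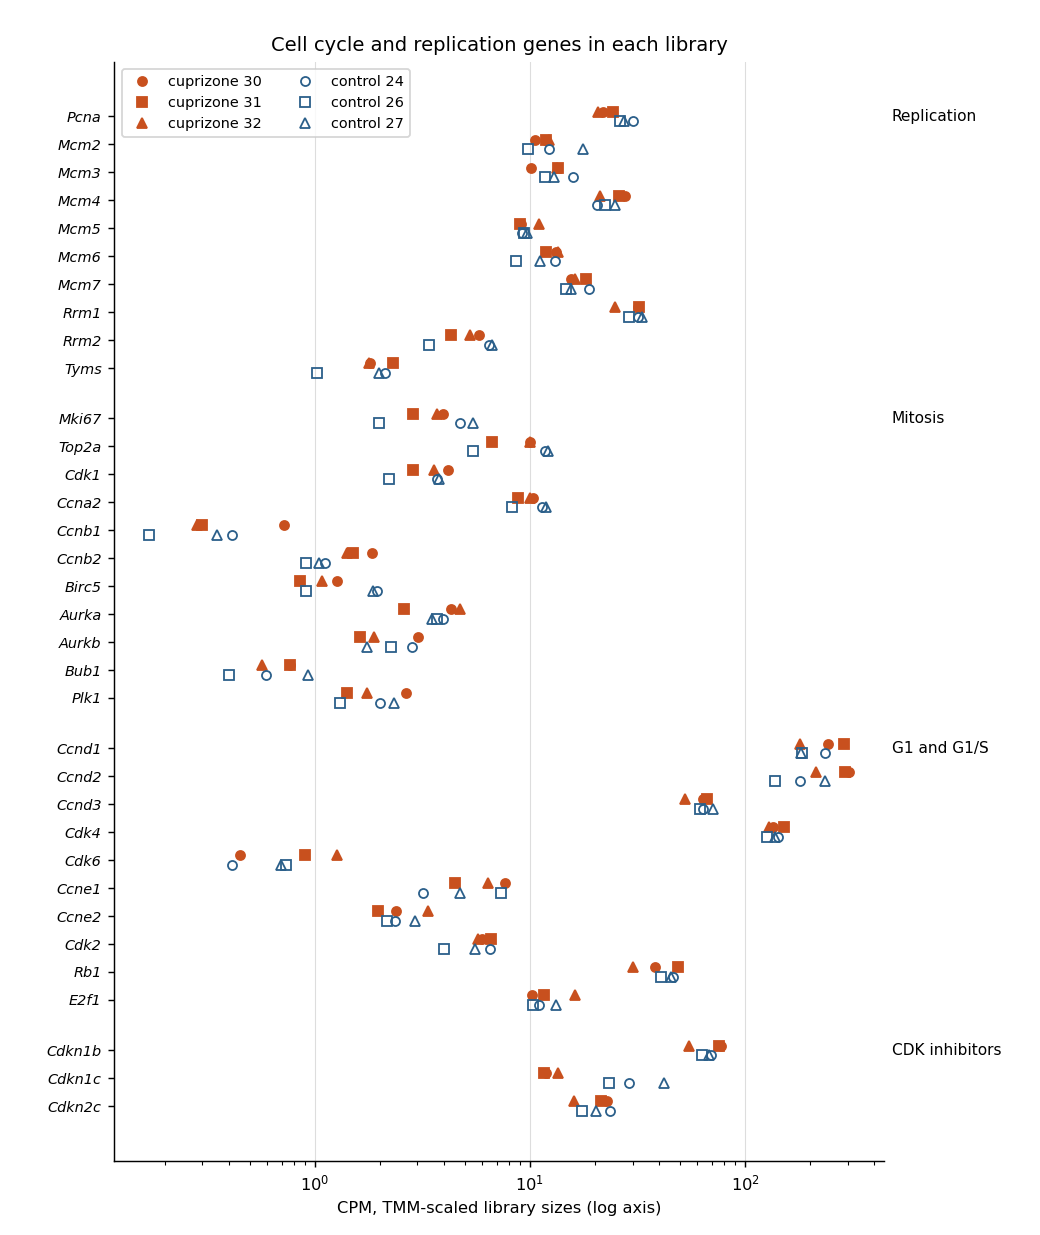
CPM (log axis) of the 34 genes in each library, grouped by role, with cuprizone libraries as filled and control libraries as open symbols. For Cdkn1c the cuprizone libraries lie at 11.7 to 13.5 CPM, all below the control libraries at 23.4 to 41.9 CPM, while for most other members the groups overlap.

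Total counts ran from 19455245 to 22381307 in cuprizone libraries and from 18549360 to 18771737 in control libraries. All 14 markers of myelinating oligodendrocytes were detected and all 14 fell. With no input library analysed here, this shows that the lineage is present but not how far it was enriched. Olig1, whose promoter drives Cre, fell to 661 ± 167 CPM in cuprizone, against 1438 ± 184 CPM in control libraries (log2 fold change -1.12, adjusted p = 0.0334). The tagged gene Rpl22 did not pass, at 76.4 ± 9.97 CPM in cuprizone and 70.4 ± 7.14 CPM in control libraries (SD, n = 3 each). RNA of markers of other cell types was also present, with a summed level of 10 astrocyte markers between 16137 and 30928 CPM. Whether it came from tagged or untagged cells was not tested. None of the 10 progenitor, 16 microglia, 10 astrocyte, 10 vascular or 8 neuron markers passed in edgeR. At an unadjusted p of 0.05, 1, 4, 1, 3 and 0 of them passed, and DESeq2 called 0, 2, 0, 1 and 0 of them higher and 1 astrocyte marker lower. Median log2 fold changes were -0.09, 0.93, 0.07, 1.29 and 0.25 in the same order. Of the microglia markers 14 of 16 were positive and of the vascular markers 10 of 10, against 52.6% of all genes tested. Cuprizone replicate 32 was the highest library for 15 of these microglia and 9 of these vascular markers. Of 9 T and B cell markers only Cd4 had enough counts to test, and it rose. In cuprizone replicate 30 Cd4 had 490 reads, while the T cell genes Cd3e, Cd3g and Cd3d had 0. In cuprizone replicate 32 Cd4 had 718 reads, and these 3 genes had 60, 28 and 13. Among 9 markers of neural stem cells and neuroblasts 1 rose. In such bulk libraries, fewer cells of a type and less RNA per cell cannot be told apart. Cuprizone replicate 32 stood apart from the other cuprizone libraries, since chi-square statistics of its gene counts, divided by their degrees of freedom, were 85.1 with replicate 30 and 101 with replicate 31. Between replicates 30 and 31 this value was 26.6. Without replicate 32 the counts among members were the same, 0 higher and 1 lower.

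Replication genes did not pass the test in either direction. The list holds the 6 subunits of the MCM helicase, which is loaded at origins and unwinds DNA, the sliding clamp Pcna, both subunits of ribonucleotide reductase (Rrm1 and Rrm2) and thymidylate synthase (Tyms). Of these 10 genes, 5 had a positive and 5 a negative fold change, from -0.33 to 0.23 on the log2 scale. The median was -0.03.

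Pcna came nearest to a difference. It had 21.8, 24.3 and 20.6 CPM in cuprizone replicates 30, 31 and 32, against 30.1, 26.2 and 27.3 CPM in control replicates 24, 26 and 27. All 3 cuprizone libraries lay below all 3 controls. The log2 fold change was -0.33 ± 0.12 (SE), with a 95% interval of -0.60 to -0.05 and an adjusted p of 0.156, so it did not pass.

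The MCM subunits overlapped between the groups. Summed per length, as RPKM, which divides CPM by exonic length in kilobases, the 6 of them reached 20.5, 21.4 and 20.6 RPKM in cuprizone libraries, against 21.1, 18.2 and 21.2 RPKM in control libraries. Mcm4 held the largest share of this sum, 33.4% ± 4.48 in cuprizone and 31.3% ± 3.63 in control libraries (SD, n = 3 each). The 6 fold changes ran from -0.19 for Mcm2 to 0.23 for Mcm6. The 95% interval of Mcm5 was the range -0.29 to 0.38 and that of Mcm7 -0.30 to 0.36, so a difference of 1 log2 unit lay outside both.

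Rrm1, the large subunit of ribonucleotide reductase, was at 29.6 ± 4.03 CPM in cuprizone and 31.3 ± 2.32 CPM in control libraries. Rrm2, the subunit made mainly in S phase, was at 5.77, 4.28 and 5.28 CPM in cuprizone libraries, against 6.48, 3.40 and 6.70 CPM in control libraries, with control replicate 26 the lowest of all. Tyms, which makes thymidylate, was at 1.80, 2.31 and 1.79 CPM in cuprizone and 2.12, 1.02 and 1.98 CPM in control libraries, again lowest in control replicate 26. For both genes the groups overlapped.

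Promoters were searched for letters that E2F and other cell cycle factors are known to bind. Promoters of RefSeq in GRCm38.p6, 250 bases before to 50 after the start, were found for 26 of the 34 members, and matches on either strand were counted. The E2F pattern TTTNNCGC, with cytosine or guanine at each N, was present for 4 of 9 replication members with a promoter (44.4%), against 2.6% of 27025 genes. The CCAAT box was present for 8 of 9 (88.9%), against 41.1% of all genes. Mcm6 is shown because it holds the pattern 3 times, the first pair overlapping. Capitals here and in the promoters below mark the E2F pattern, the CCAAT box, the mitotic pattern TTTGAA and the E-box pattern CACGTG, each read on either strand. A match describes the letters of the window and does not show that a factor binds there.
Mcm6 (chr1:128359656-128359955, minus strand): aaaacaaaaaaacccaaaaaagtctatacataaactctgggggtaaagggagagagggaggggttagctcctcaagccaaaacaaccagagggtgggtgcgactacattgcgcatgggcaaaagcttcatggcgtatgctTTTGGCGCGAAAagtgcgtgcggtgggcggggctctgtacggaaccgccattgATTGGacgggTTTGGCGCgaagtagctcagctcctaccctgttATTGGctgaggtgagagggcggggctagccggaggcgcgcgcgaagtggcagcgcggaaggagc

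Mitosis genes had the lowest median level per length of the 4 groups of members, and none passed the test. The list holds the proliferation marker Mki67, topoisomerase Top2a, the mitotic kinases Cdk1, Aurka, Aurkb, Plk1 and Bub1, the cyclins Ccna2, Ccnb1 and Ccnb2, and survivin (Birc5), a subunit of the complex that holds Aurora B at centromeres. In each diet group 8 of the 11 genes had a mean level under 1 RPKM. Of the 10 tested, 5 had a positive and 5 a negative fold change. Their median log2 fold change was -0.01.

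Mki67 had 3.92, 2.87 and 3.68 CPM in cuprizone libraries, against 4.72, 1.98 and 5.42 CPM in control libraries. The cuprizone libraries lay between the lowest and the highest control. The log2 fold change was -0.21 ± 0.37 (SE), with a 95% interval of -1.08 to 0.66. Top2a, which untangles replicated chromosomes, followed the same order among controls, with 9.96, 6.67 and 9.95 CPM in cuprizone and 11.8, 5.44 and 12.2 CPM in control libraries. Cdk1, the kinase that starts mitosis, had 4.15, 2.87 and 3.59 CPM in cuprizone and 3.71, 2.21 and 3.79 CPM in control libraries. Ccna2, cyclin A2, had 10.3, 8.81 and 10.0 CPM in cuprizone and 11.4, 8.27 and 11.9 CPM in control libraries. In all 4 genes control replicate 26 was the lowest library and cuprizone replicate 31 the next lowest.

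Ccnb2, a cyclin B partner of CDK1, was the mitosis gene whose groups did not overlap. It had 1.85, 1.497 and 1.42 CPM in cuprizone libraries, against 1.12, 0.907 and 1.05 CPM in control libraries. Its log2 fold change was 0.63 ± 0.26 (SE), with a 95% interval of 0.02 to 1.24 and an adjusted p of 0.203, so it did not pass. These levels rest on 41, 35 and 30 reads in cuprizone and 19, 16 and 18 reads in control libraries. Its paralog Ccnb1, with 16, 7 and 6 reads in cuprizone and 7, 3 and 6 in control libraries, was the member left untested for low counts. Birc5 had the largest negative fold change of the group, -0.56, with a 95% interval of -1.41 to 0.30. Its cuprizone libraries at 1.26, 0.855 and 1.09 CPM overlapped the control libraries at 1.95, 0.907 and 1.86 CPM. The 4 kinases Aurka, Aurkb, Bub1 and Plk1 had log2 fold changes from -0.07 to 0.14, with adjusted p from 0.872 to 0.954.

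The promoters of mitosis members shared letters that the choice of genes did not use. The pattern TTTGAA, known as the cell cycle genes homology region and bound by the DREAM and MuvB complexes in late cycle genes, was present for 6 of 9 members with a promoter (66.7%), against 20.2% of all genes. Among 33 other spindle and kinetochore genes with a promoter the share was also 66.7%, and for replication members it was 11.1%. CCAAT was present for 8 of 9 mitosis members (88.9%). The E2F pattern was present for 1 of 9 (11.1%), that of Cdk1. The 2 promoters that follow show the arrangement, with 3 CCAAT boxes and 2 TTTGAA matches in each.
Cdk1 (chr10:69352863-69353162, minus strand): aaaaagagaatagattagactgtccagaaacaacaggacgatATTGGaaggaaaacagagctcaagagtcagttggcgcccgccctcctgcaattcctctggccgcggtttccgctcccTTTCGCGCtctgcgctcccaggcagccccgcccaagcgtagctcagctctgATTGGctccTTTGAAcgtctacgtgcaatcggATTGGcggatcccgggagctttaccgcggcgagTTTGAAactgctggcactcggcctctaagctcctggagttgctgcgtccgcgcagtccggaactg
Ccnb2 (chr9:70421505-70421804, minus strand): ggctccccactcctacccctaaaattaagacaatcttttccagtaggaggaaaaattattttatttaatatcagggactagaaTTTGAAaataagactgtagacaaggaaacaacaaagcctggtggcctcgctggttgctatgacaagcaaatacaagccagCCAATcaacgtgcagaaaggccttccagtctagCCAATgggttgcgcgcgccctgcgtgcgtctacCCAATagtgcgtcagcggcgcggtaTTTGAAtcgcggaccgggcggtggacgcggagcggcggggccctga

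The summed level of mitosis genes differed more between libraries of a group than between the group means. Summed over the 11 genes, the level was 42.9, 30.3 and 38.9 CPM in cuprizone replicates 30, 31 and 32, against 44.4, 27.5 and 45.0 CPM in control replicates 24, 26 and 27. The group means were 37.4 ± 6.44 CPM in cuprizone and 39.0 ± 9.93 CPM in control libraries (SD, n = 3 each). Of the 10 tested members, 7 were lowest in control replicate 26 and the other 3 in cuprizone replicate 31. Of 38 other spindle and kinetochore genes tested, 19 were lowest in control replicate 26 (50%), against 15.1% of all genes tested. Among the replication members 5 of 10 were lowest there. These genes share their libraries, so the counts are a description.

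Levels of other cell types' markers stand beside this pattern. The 9 markers of neural stem cells and neuroblasts summed to 210, 130 and 155 CPM in cuprizone libraries, against 151, 133 and 169 CPM in control libraries. Their lowest libraries were the same 2, cuprizone replicate 31 and control replicate 26, and none of the 9 was at 0 in any library. Singly, 4 of the 9 were lowest in control replicate 26 and 3 in cuprizone replicate 31, while 1 was highest in control replicate 26. The 10 vascular markers had the same 2 lowest libraries. They summed to 86.4, 60.9 and 222 CPM in cuprizone libraries, against 66.7, 56.1 and 68.0 CPM in control libraries. The 10 progenitor markers gave another order, with 1392, 1451 and 867 CPM in cuprizone and 1319, 1570 and 1240 CPM in control libraries, so that control replicate 26 was the highest. The 16 microglia and macrophage markers summed to 2405, 3243 and 6047 CPM in cuprizone and 3177, 1718 and 1517 CPM in control libraries. The part of these cells in the levels of mitosis genes was not tested. Without control replicate 26 the members' median log2 fold change was -0.07, and still 0 members rose and 1 fell.

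**Figure D2:**
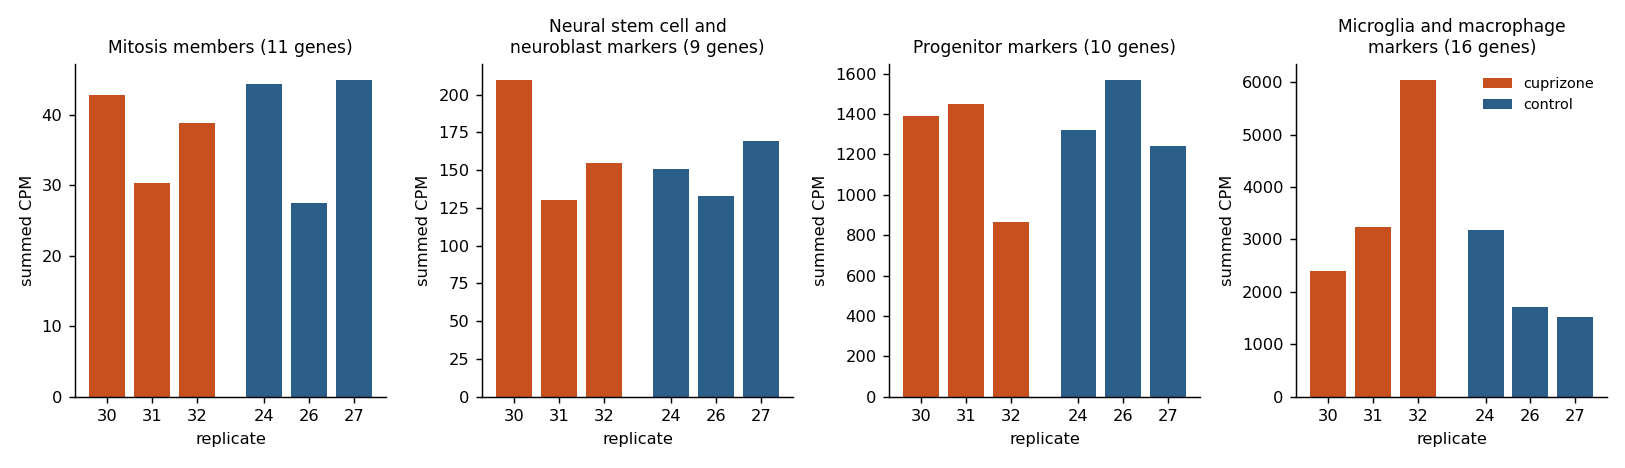
Summed CPM per library of the 11 mitosis genes and of 3 lists of cell type markers, with cuprizone libraries at the left and control libraries at the right of each panel. Mitosis genes and neural stem cell and neuroblast markers are lowest in cuprizone replicate 31 and control replicate 26, while progenitor markers are highest in control replicate 26.

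The cyclins and kinases of G1 include the 3 most abundant members per length, and none of the 10 genes of this list passed the test (at an unadjusted p of 0.05, 0 of 10 passed). Ccnd1 stood first per length, at 50.4 ± 11.4 RPKM in cuprizone and 42.7 ± 6.50 RPKM in control libraries, followed by Cdk4 at 42.7 ± 3.70 RPKM in cuprizone and 41.7 ± 2.53 RPKM in control libraries (SD, n = 3 each). These neighbours did not differ beyond their spread. Ccnd2 came next, at 28.7 ± 5.23 RPKM in cuprizone and 19.6 ± 5.25 RPKM in control libraries. Cdk6, the other kinase that D-type cyclins activate, was the lowest of all 34 members at 0.0625 ± 0.0294 RPKM in cuprizone and 0.0440 ± 0.0127 RPKM in control libraries. Cdk4 thus made up 99.9% of the sum of the 2 kinases in either group.

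Among the D-type cyclins, Ccnd2 had the largest fold change. It had 305, 291 and 213 CPM in cuprizone libraries, against 181, 137 and 236 CPM in control libraries. Cuprizone replicate 32 lay below control replicate 27, so the groups overlapped. The log2 fold change was 0.55 ± 0.23 (SE), with a 95% interval of -0.00 to 1.10 and an adjusted p of 0.217, so it did not pass. Ccnd1 had 244, 287 and 181 CPM in cuprizone and 237, 184 and 183 CPM in control libraries, with a log2 fold change of 0.24 ± 0.20. Ccnd3 was at 61.2 ± 7.42 CPM in cuprizone and 65.5 ± 4.78 CPM in control libraries, with a log2 fold change of -0.10 ± 0.13. Per length, Ccnd2 was 33.4% ± 2.18 of the 3 D-type cyclins in cuprizone and 28.0% ± 5.98 in control libraries, with overlapping ranges. Exons of Ccnd1 overlap those of a gene on the other strand over 23.4% of their length, and for Cdk4 the share is 19.7%. Whether reads were counted by strand was not stated by the labels.

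Cdk4, the main kinase partner of the D-type cyclins here, had 134, 153 and 130 CPM in cuprizone libraries, against 142, 126 and 138 CPM in control libraries, with a log2 fold change of 0.04 ± 0.12 (SE) and a 95% interval of -0.25 to 0.32. Its promoter is shown because Cdk4 is a known target of MYC in other cells, and Myc, described below, rose. Whether Myc acts on Cdk4 here was not tested. The promoter holds the E-box pattern CACGTG, which MYC can bind, 4 times. This pattern was present for 4 of 26 members with a promoter (15.4%), against 8.09% of all genes.
Cdk4 (chr10:127063285-127063584, plus strand): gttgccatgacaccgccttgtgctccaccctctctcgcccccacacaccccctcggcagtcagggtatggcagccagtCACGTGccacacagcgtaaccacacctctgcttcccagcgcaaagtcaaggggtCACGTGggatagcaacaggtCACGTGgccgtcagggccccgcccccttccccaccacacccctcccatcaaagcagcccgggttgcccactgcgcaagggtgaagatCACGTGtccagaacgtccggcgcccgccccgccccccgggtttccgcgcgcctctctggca

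Genes at the entry to S phase did not pass either. Ccne1, a cyclin E, had 7.62, 4.49 and 6.42 CPM in cuprizone and 3.18, 7.37 and 4.72 CPM in control libraries. Its paralog Ccne2 had 2.39, 1.97 and 3.35 CPM in cuprizone and 2.36, 2.15 and 2.91 CPM in control libraries. Both ranges overlapped widely. Exons of Ints8 on the other strand overlap 17.4% of the exon length of Ccne2. Cdk2, the kinase of cyclin E, was at 6.11 ± 0.427 CPM in cuprizone and 5.35 ± 1.298 CPM in control libraries. E2f1, an activator of replication genes, was at 12.7 ± 3.12 CPM in cuprizone and 11.5 ± 1.48 CPM in control libraries. Rb1, which holds E2F factors in check, was at 39.1 ± 9.37 CPM in cuprizone and 44.1 ± 2.92 CPM in control libraries (SD, n = 3 each). The fold changes of these 5 genes ran from -0.17 to 0.28 on the log2 scale, and their adjusted p from 0.619 to 0.934.

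**Figure D3:**
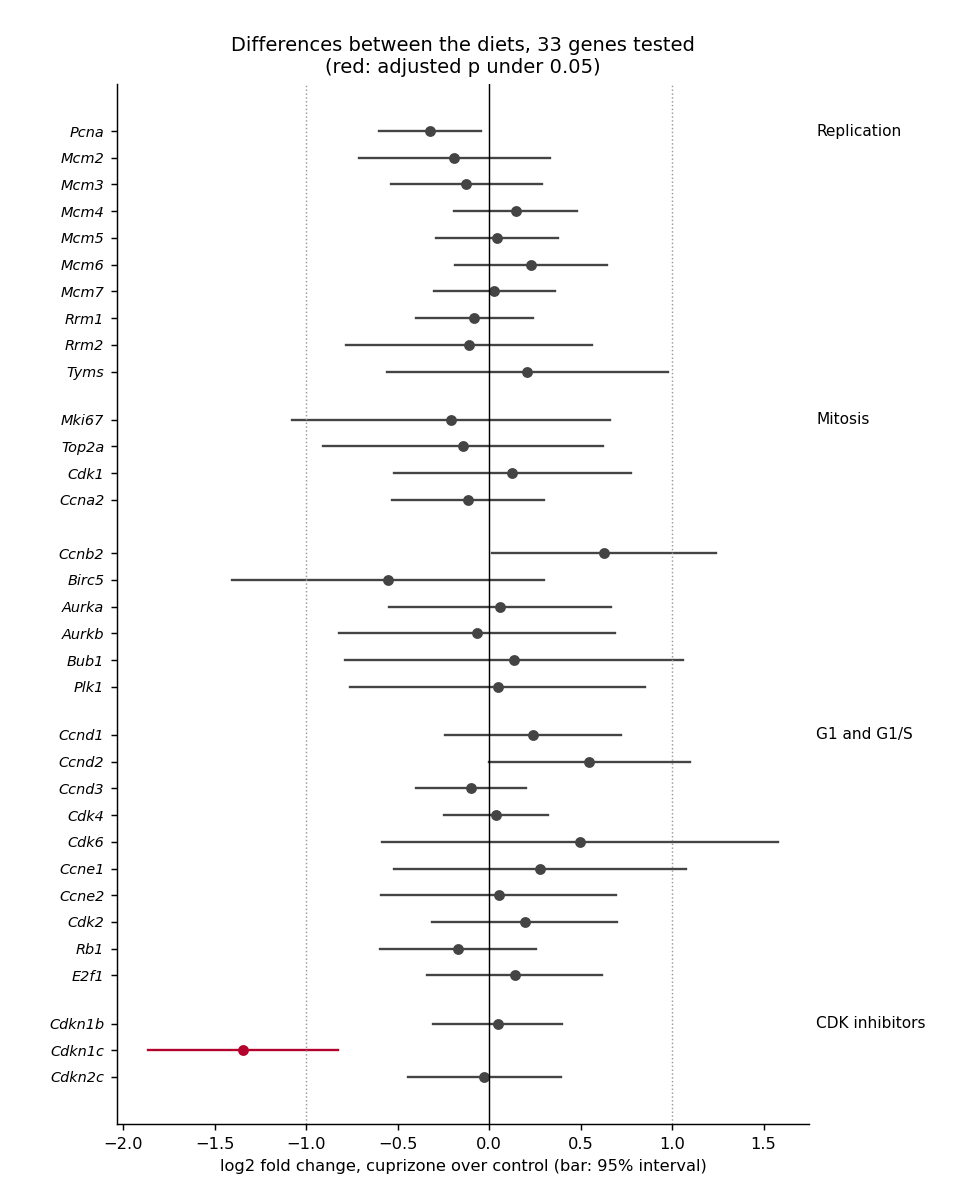
Log2 fold change of cuprizone over control for the 33 genes tested, with 95% intervals from edgeR's quasi-likelihood fit, grouped by role, and dotted lines at 1 log2 unit to either side of 0. The interval of Cdkn1c, from -1.86 to -0.83, is the one that lies farthest from 0, and 25 of the 33 intervals lie wholly between the dotted lines.

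The intervals reflect the spread between libraries. For 25 of the 33 tested members the 95% interval stayed within 1 log2 unit of 0, and for 8 within 0.5. The 8 members whose intervals reached beyond 1 were Mki67, Ccnb2, Birc5, Bub1, Ccnd2, Cdk6, Ccne1 and Cdkn1c.

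Among the inhibitors of cyclin-dependent kinases, p57 fell while the p27 and p18 genes did not pass. Cdkn1c (ENSMUSG00000037664, chromosome 7, 143458339 to 143461050 in GRCm38) is an imprinted gene that is expressed mainly from the maternal copy. It had 11.9, 11.7 and 13.5 CPM in cuprizone replicates 30, 31 and 32, against 28.9, 23.4 and 41.9 CPM in control replicates 24, 26 and 27. The cuprizone libraries were close to each other and all lay below the lowest control. The log2 fold change was -1.35 ± 0.22 (SE), with an adjusted p of 0.0131, which is a level 0.393 times that of control. Without cuprizone replicate 30 the log2 fold change was -1.32 and the adjusted p 0.0616, so the call was lost. With any other library left out the adjusted p was 0.0155 to 0.0428. The antisense gene Gm44732 covers 30.7% of the exon length of Cdkn1c, and reads of the 2 cannot be told apart without the strand setting. All 14 markers of myelinating oligodendrocytes fell in the same libraries, summing to 8299, 15200 and 8129 CPM in cuprizone and 84428, 62641 and 76225 CPM in control libraries, and their part in the fall of Cdkn1c was not tested.

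Cdkn1b, which encodes p27, had 77.0, 76.0 and 55.1 CPM in cuprizone libraries, against 69.8, 63.4 and 68.3 CPM in control libraries. Its groups overlapped, with a log2 fold change of 0.05 ± 0.15 (SE) and a 95% interval of -0.31 to 0.40. Cdkn2c, which encodes the INK4 inhibitor p18, had 22.9, 21.3 and 15.99 CPM in cuprizone and 23.6, 17.5 and 20.3 CPM in control libraries. Its log2 fold change was -0.03 ± 0.18, with a 95% interval of -0.45 to 0.39. The fold change of Cdkn1c lay outside both intervals.

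The make-up of the Cip/Kip family differed between the diets. This family, p21 (Cdkn1a), p27 and p57, inhibits cyclin E, A and B complexes. Cdkn1a had 126, 126 and 85.2 CPM in cuprizone libraries, against 15.7, 12.9 and 10.5 CPM in control libraries. It rose 8.62-fold, with a log2 fold change of 3.11 ± 0.22 (SE) and an adjusted p of 0.00101. Per length, the 3 genes together reached 52.9 ± 8.83 RPKM in cuprizone and 33.8 ± 4.73 RPKM in control libraries (SD, n = 3 each). Cdkn1a made up 59.4% ± 2.82 of this sum in cuprizone and 11.1% ± 2.95 in control libraries. The share of Cdkn1c was 11.8% ± 3.19 in cuprizone and 44.9% ± 7.41 in control libraries, and that of Cdkn1b 28.8% ± 0.401 in cuprizone and 44.0% ± 4.60 in control libraries. None of these shares overlapped between the groups. The shares are parts of the same sum, so the rise of Cdkn1a lowered those of the other genes. The level of Cdkn1b itself overlapped, at 15.2 ± 2.72 RPKM in cuprizone and 14.8 ± 0.738 RPKM in control libraries. That of Cdkn1c was 6.06 ± 0.486 RPKM in cuprizone and 15.4 ± 4.65 RPKM in control libraries.

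In the INK4 family, whose members block CDK4 and CDK6, no gene passed. Cdkn2d, which encodes p19, was its main member per length, at 24.9 ± 4.54 RPKM in cuprizone and 33.1 ± 0.935 RPKM in control libraries. Its log2 fold change was -0.41 ± 0.14, with an adjusted p of 0.146. Cdkn2a and Cdkn2b were at or under 1.297 RPKM in every library.

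**Figure D4:**
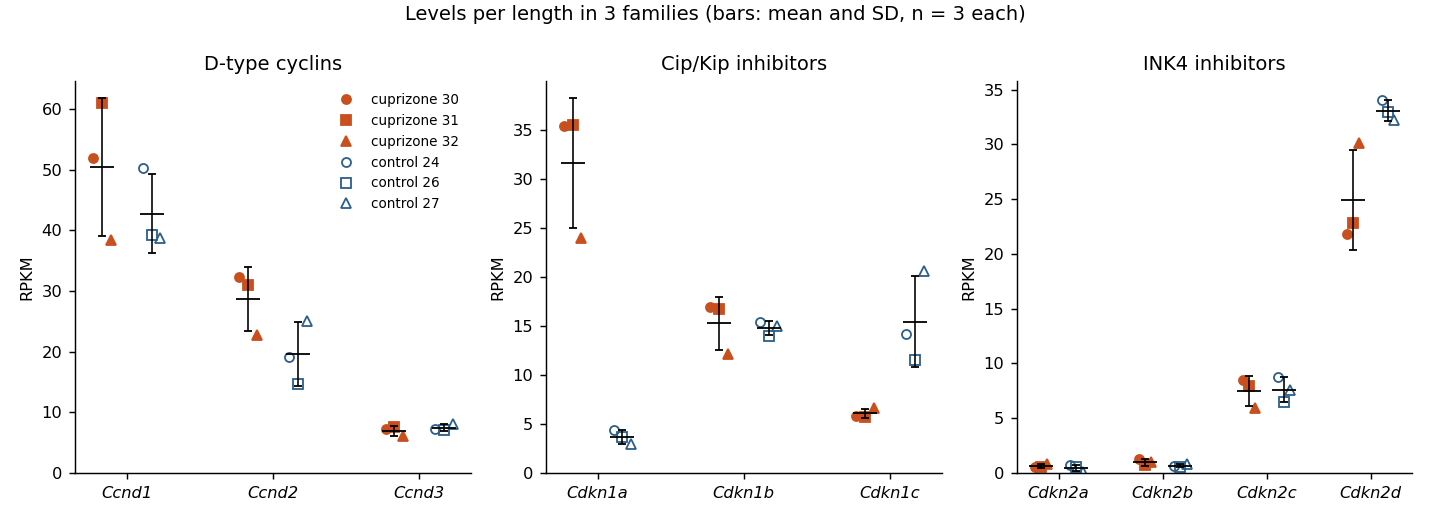
Level per length (RPKM) of the D-type cyclins and of the Cip/Kip and INK4 inhibitors in each library, with the mean and SD of each group (n = 3) and cuprizone to the left of control for each gene. In the Cip/Kip panel Cdkn1a lies at 23.99 to 35.5 RPKM in cuprizone and 2.95 to 4.41 RPKM in control libraries, while Cdkn1c lies at 5.73 to 6.62 RPKM in cuprizone and 11.5 to 20.5 RPKM in control libraries.

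Other genes of the cycle passed the test at a share near that of all genes. Of 121 further genes in 5 lists, 115 were tested, and 2 rose and 4 fell. That is 5.22%, against 7.57% of all genes tested, 1.87% higher and 5.7% lower. The median log2 fold change was -0.08. Of 18 genes of origin licensing and firing 1 fell, Gins4, a subunit of the helicase complex at the fork, with 20.3, 24.5 and 21.8 CPM in cuprizone libraries, against 37.5, 31.8 and 34.01 CPM in control libraries. Its log2 fold change was -0.63 ± 0.12 (SE), with an adjusted p of 0.0241. Of 27 replication fork genes 1 fell, Prim1, the catalytic subunit of primase, with 3.83, 3.76 and 4.01 CPM in cuprizone and 6.37, 6.12 and 7.05 CPM in control libraries (-0.75 ± 0.16, adjusted p = 0.0334). In that list 23 of 27 genes had a negative fold change, against 47.4% of all genes tested, with a median of -0.22. The groups did not overlap for 7 of the 27, all lower in cuprizone. Of all genes tested 30.2% did not overlap in either direction, and 17.6% were lower without overlap. In the origin licensing and firing list 7 of 18 did not overlap, 4 lower and 3 higher. These genes share their libraries, so the counts are a description.

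Of 38 spindle, kinetochore and mitotic exit genes 1 fell, Anln. It encodes anillin, which acts in cytokinesis and is also abundant in myelinating oligodendrocytes, where it builds septin filaments of myelin. Anln had 26.2, 32.8 and 12.6 CPM in cuprizone and 318, 342 and 284 CPM in control libraries (-3.72 ± 0.35, adjusted p = 0.00195), beside the fall of all 14 myelin markers. Of 17 transcription factors and pocket proteins of the cycle 1 rose and 1 fell. Tfdp2, a dimer partner of E2F factors, fell by 0.45 on the log2 scale (adjusted p = 0.044). Of 15 inhibitors and other cyclins and kinases 1 rose, Cdkn1a.

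Myc was the transcription factor of the cycle that rose. This proto-oncogene, which promotes growth and entry into the cycle, had 23.5, 27.8 and 20.5 CPM in cuprizone libraries, against 10.9, 9.07 and 5.71 CPM in control libraries. The groups did not overlap. The rise was 2.80-fold, a log2 fold change of 1.48 ± 0.25 (SE) with an adjusted p of 0.0139. Without cuprizone replicate 30 the adjusted p was 0.0521 and without control replicate 26 it was 0.0651.

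The smaller calls among these further genes were lost in some fits with a library left out, while their fold changes kept their sign. Log2 fold changes then ran from -0.71 to -0.55 for Gins4, from -0.79 to -0.70 for Prim1 and from -0.50 to -0.40 for Tfdp2. In these fits 65 to 464 of all genes rose and 474 to 963 fell, against 310 and 945 with all libraries. Gins4 did not pass without cuprizone replicate 30 or any of the 3 control libraries, with adjusted p of 0.0649 to 0.0967. Prim1 passed only with all libraries or without cuprizone replicate 32, with adjusted p of 0.0836 to 0.144 otherwise. Tfdp2 did not pass with any library left out, with adjusted p of 0.0511 to 0.155, nor with upper-quartile scaling or no filter on low counts, with 0.0700 and 0.0747. Prim1 had 0.0547 with no filter. Cdkn1a and Anln passed in every one of these fits.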

How the data were processed

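The authors deposited raw read counts per Ensembl gene for each library. The submitters' processing notes name bcl2fastq 2.17 and the build mm10, and no source used here names the aligner, the counter, the annotation release or whether strand was used. Genes were matched by identifier to GENCODE M21 for symbols, coordinates and exonic length.

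Counts were scaled by TMM and filtered with filterByExpr (minimum count 10, total 15). Cuprizone was tested against control in edgeR 4.0.16 (R 4.3.3) by the robust quasi-likelihood test, with Benjamini-Hochberg adjustment over 16569 genes and a threshold of 0.05. The fit was tested on simulated data. CPM and RPKM were computed from TMM-scaled totals, without a test for RPKM. Intervals are 95% confidence intervals of the log2 fold change, set from the spread between libraries. Also tried were upper-quartile or RLE factors, TMM without myelin and the 20 most abundant genes, other filters, DESeq2 1.42.0, limma-voom (limma 3.58.1) and leaving out each library. No batch label was found.

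The members and all gene lists were chosen with earlier results of these data known. The text names all members, the genes of other cell cycle lists past the threshold, and a few set marker genes. Promoter sequences are from RefSeq, GRCm38.p6.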

Additional observations from a re-analysis of the deposited data

How the results depend on the processing

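No paired analysis was possible because the cuprizone and control libraries share no replicate number. Over 13 alternatives, 0 members rose in any, and 1 fell in all but the fit without cuprizone replicate 30, so that leaving out each library gave 0 to 1. Over all genes, 310 rose; DESeq2 gave 862 and leaving out each library 65 to 464. In turn 945 fell, with 857 to 1400 under the other settings, the highest in DESeq2, and 474 to 963 when a library was left out. Of the other cell cycle genes 2 rose, with 1 to 3 when a library was left out, and 4 fell, with 2 when no filter was used and 1 to 5 when a library was left out. The members' median of 0.04 ranged from -0.069 to 0.096 when a library was left out.

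The sign of 19 members, none of which passed, changed in some alternative. Cdkn2c was at 0.026 with upper-quartile scaling. Leaving out each library gave the following ranges of log2 fold change. For replication, Mcm2 ranged from -0.36 to 0.063, Mcm3 from -0.21 to 0.024, Mcm5 from -0.057 to 0.090, Mcm7 from -0.043 to 0.16, Rrm1 from -0.15 to 0.027, Rrm2 from -0.36 to 0.043 and Tyms from -0.054 to 0.42. For mitosis, Mki67 ranged from -0.53 to 0.051, Top2a from -0.43 to 0.036, Cdk1 from -0.079 to 0.26, Aurka from -0.11 to 0.28, Aurkb from -0.38 to 0.14, Bub1 from -0.11 to 0.50 and Plk1 from -0.25 to 0.23. For G1 and the inhibitors, Cdk4 ranged from -0.038 to 0.092, Ccne2 from -0.18 to 0.21, E2f1 from -0.076 to 0.27, Cdkn1b from -0.036 to 0.19 and Cdkn2c from -0.13 to 0.11. The cause was not tested. With unscaled totals 13 of 68 mean RPKM values moved by 1 SD or more.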

Other observations

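Nes, which encodes the intermediate filament nestin of neural progenitors and reactive glia, had 47.0, 25.5 and 28.7 CPM in cuprizone libraries, against 15.5, 6.80 and 8.62 CPM in control libraries. It rose by 1.71 ± 0.36 (SE) on the log2 scale, with an adjusted p of 0.0329 in edgeR. The number of the 9 neural stem cell and neuroblast markers that rose was 0 without cuprizone replicate 30, control replicate 26 or control replicate 27. The other 8 markers of that list did not pass. Their log2 fold changes ran from -0.61 for Dlx2 to 1.297 for Cd24a, with 2 positive and 6 negative.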
